A study of Homo sapiens with 6 samples.

Results

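The matrix metalloproteinases (MMPs), the ADAM and ADAMTS metalloproteinases and the tissue inhibitors of metalloproteinases (TIMPs) were examined in SUM159 oncospheres with and without a vector for SCGB3A1. SUM159 is an established human breast cancer cell line, and oncospheres are floating clusters of cells that form when attachment to the dish is prevented. A gene was included when a probe set of the array carried its symbol alone and the symbol began with MMP and a number, or was ADAM, ADAMTS or TIMP followed by a number. This gave 66 genes of 19775 with a probe set of their own, namely 24 MMP, 20 ADAM, 18 ADAMTS and 4 TIMP genes. Where a gene had several probe sets, the brightest on average across the 6 arrays stood for it. The open end of the MMP pattern also took in MMP24OS and MMP25-AS1, which are transcribed opposite an MMP gene and do not encode one. ADAM5 and ADAM6 are listed as pseudogenes. MMP23A, MMP23B and ADAM29 were named only beside another gene, and ADAM7 and ADAMTS7 had no probe set of their own, so these 5 were not included.

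Control cells carried the empty lentiviral vector pLVX-puro (3 arrays), and SCGB3A1 cells carried pLVX-puro with human SCGB3A1 (3 arrays), a secreted protein of the secretoglobin family that endothelial cells of metastatic lungs make in the study. Both groups had been under puromycin (2 µg/ml, 7 days) before 5 days of culture on ultra-low attachment plates at 12500 cells/ml, and 100 ng of total RNA was used per array. Values are log2 expression after robust multiarray averaging, and fold changes are the arrays labelled SCGB3A1 minus control. The labels call the arrays of each group biological replicates. Whether these came from independent transductions is not given in the sources used here. The p-values therefore reflect only the spread among these arrays, which may not include that between transductions.

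MMPs are zinc endopeptidases that are made as inactive precursors and cut collagens and other matrix proteins once the propeptide is removed. Most are secreted, whereas membrane-type MMPs such as MMP14 act at the cell surface. ADAMs are membrane-anchored and release the outer parts of growth factors, receptors and adhesion molecules, ADAM10 and ADAM17 being the main sheddases. ADAMTS proteases are secreted, bind to matrix through thrombospondin repeats and cut proteoglycans, procollagens or von Willebrand factor. TIMPs block MMPs and, in the case of TIMP3, several ADAM and ADAMTS proteases as well. The array reads transcripts, so neither activation nor inhibition of the proteins was measured.

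Array medians lay between 6.92 and 6.93. Control replicate 2 differed most from the rest, with correlations of 0.989 to 0.993 with the other arrays and a first principal component score of 30.7, where the others lay between -16.1 and 6.13. It was also the array farthest from the median of the 6 arrays for 18 of the 66 genes, against 5 to 13 for each of the others. The only SCGB3A1 probe set read 6.80, 6.89 and 7.05 in control and 6.60, 6.92 and 6.71 in the arrays labelled SCGB3A1. These values overlap and differed by -0.17 ± 0.10 (SE; 95% interval -0.38 to 0.04; limma adjusted p = 0.83), so this probe set did not bear out the labels. A probe set near the native 3′ end may not read a transcript made from a vector, which was not tested. The paper states that cancer cells infected with its expression vectors, SUM159 among them, were checked by qPCR for the added gene. Those qPCR values were not examined here. The labels name the cell line only as SUM159. All 7 genes listed for a mesenchymal-like line read above the median of all probe sets, below which 36% of all genes read. The mean of that list was 12.01 to 12.12 in control and 11.92 to 11.97 in the SCGB3A1 arrays. Markers of other cells gave list means of 8.05 to 8.12 against 8.04 to 8.10 for luminal epithelium (3 of 7 below that median), 6.80 to 6.95 against 6.89 to 6.94 for blood cells (3 of 5 below it), 6.83 to 6.88 against 6.75 to 6.86 for endothelium (5 of 7 below it) and 9.35 to 9.48 against 9.37 to 9.47 for fibroblasts (0 of 7 below it). No gene of these lists passed an adjusted p of 0.05. In the mesenchymal-like list ZEB1 (-0.25, adjusted p = 0.72) and MET (-0.21, adjusted p = 0.76) were lower without overlap, and its other genes overlapped. The largest difference of all the lists was that of the fibroblast gene LUM (0.52, adjusted p = 0.32), without overlap. In such bulk samples, fewer cells of a type and less RNA per cell cannot be told apart.

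None of the 66 protease and inhibitor genes differed between SCGB3A1 and control cells past the correction for multiple testing. By limma with Benjamini-Hochberg adjustment over all probe sets, 0 of 66 had an adjusted p under 0.05, where 0.0303% of all genes did, and adjusted p-values ran from 0.48 to 1.00. Under the looser criteria of the study's signature (an adjusted p under 0.25 and an unadjusted p under 0.05 at a log2 fold change over 0.5 in size), 0 of 66 passed, against 0.0607% of all genes. At an unadjusted p under 0.05 there were 6 genes (9.09%), against 6.82% of all genes. Of these, 4 were higher in SCGB3A1 cells (6.06%, against 3.93%), namely ADAMTS1, ADAM21, MMP28 and ADAM15. The other 2 were lower (3.03%, against 2.89%), namely MMP9 and MMP2.

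The differences were small in both directions. Fold changes ran from -0.35 for ADAMTS13 to 0.32 for ADAMTS1 on the log2 scale, 33 genes lay above 0 and 33 below, and the median was 0.00023, beside 0.011 over all genes. The median size of the difference was 0.081, beside 0.066 over all genes, and the median spread within groups was 0.10 (SD), beside 0.097. In 40 genes the difference was under 0.1, and in 2 (3.03%, against 0.93% of all genes) it was over 0.3. The 95% interval lay wholly within 0.5 of 0 for 65 of the 66 genes, so that larger differences were outside the interval for each of them. The exception was ADAMTS13, whose interval reached -0.72.

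**Figure D1:**
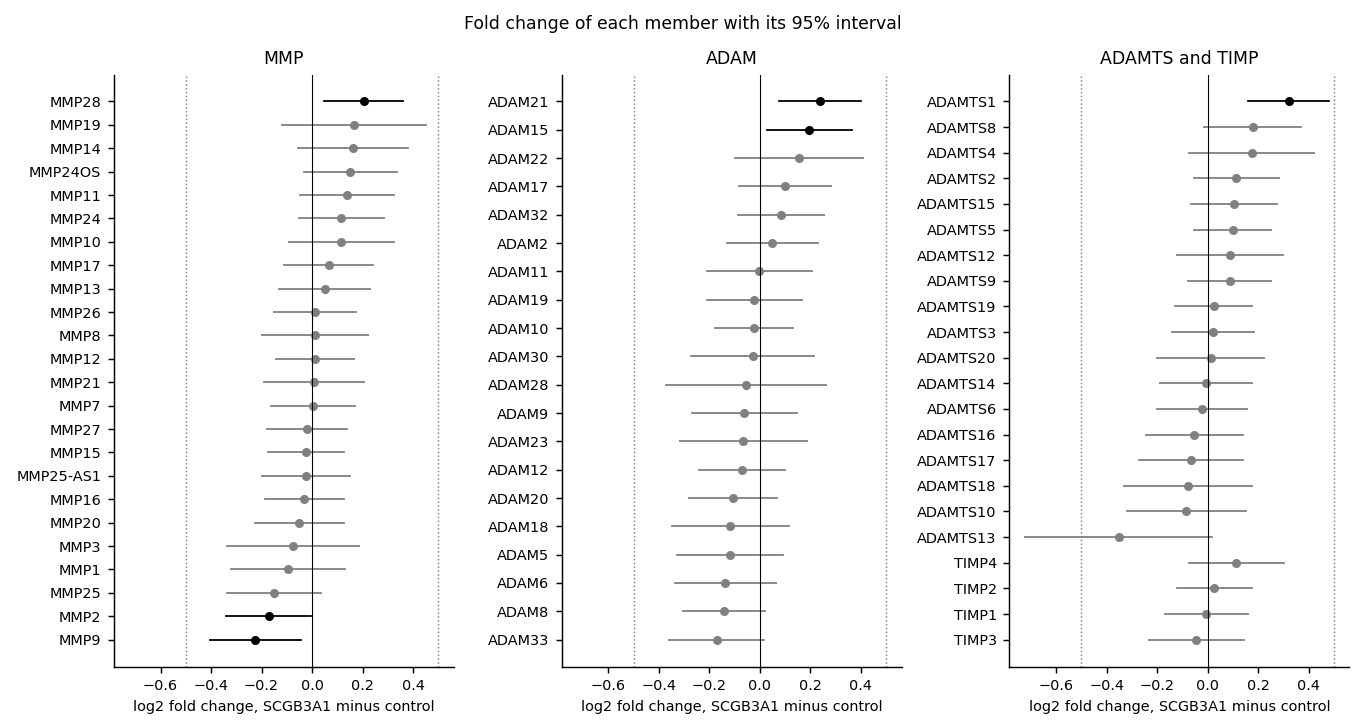
Difference between SCGB3A1 and control oncospheres for each of the 66 genes, as log2 fold change (x axis) with its 95% limma interval (lines), with 3 arrays per group. Black marks the 6 genes with an unadjusted p under 0.05, 0 of which passed adjustment, and the dotted lines at 0.5 mark the fold change of the signature criteria, which only the interval of ADAMTS13 crosses.

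Without overlap between the 3 control and the 3 SCGB3A1 arrays there were 9 genes (13.6%), against 12.3% of all genes. The SCGB3A1 arrays were the higher in 5 (7.58%, against 7.09%), which were ADAMTS1, ADAM21, MMP28, ADAM15 and ADAMTS5. They were the lower in 4 (6.06%, against 5.24%), which were MMP9, MMP2, ADAM8 and MMP25. By family, the median log2 fold change was 0.0098 for MMPs (14 above 0, 10 below), -0.042 for ADAMs (6 above, 14 below), 0.022 for ADAMTSs (11 above, 7 below) and 0.011 for TIMPs (2 above, 2 below). These medians were unsteady. Without control replicate 2 those of MMPs and ADAMs took the opposite sign, at -0.024 and 0.016, and that of MMPs was -0.0043 without SCGB3A1 replicate 1. That of ADAMTSs reached 0.055 without control replicate 1, or 0.068 when SCGB3A1 replicate 2 was dropped, and that of TIMPs ran from -0.0062 without SCGB3A1 replicate 1 to 0.031 without control replicate 1. The choice of probe sets moved them too. Without dim probe sets the medians were 0.0655 for MMPs, -0.0229 for ADAMs, 0.0871 for ADAMTSs and -0.0049 for TIMPs. Without probe sets whose suffix marks cross-hybridization or several transcripts, that of TIMPs was 0.0718. With the probe sets of each gene averaged, that of ADAMs was 0.0091.

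How bright a probe set is bears on how much a difference can be read from it, since weak values are drawn towards a common floor and differences there are understated. Of the 66 genes, 26 read below the median of all probe sets (6.91) and 40 at or above it. The 26 comprised 11 MMPs, 9 ADAMs, 5 ADAMTSs and TIMP4. Brightness depends on the probes as well as on the transcript, so the levels below are compared between arrays of a gene and not between genes.

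**Figure D2:**
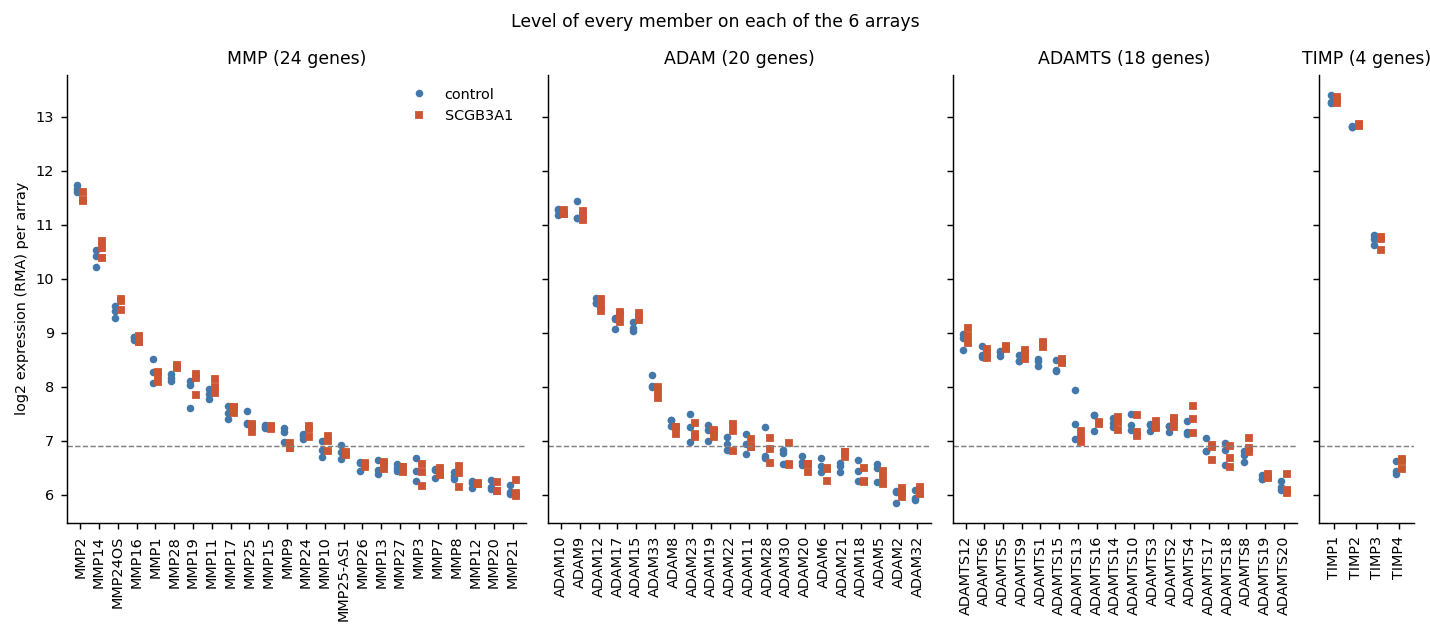
Log2 expression (y axis) of each of the 66 genes on each of the 6 arrays, control as blue circles and SCGB3A1 as red squares, with the genes of each family ordered by their mean. The dashed line is the median of all probe sets (6.91), below which 26 genes lie, and in every family the circles and squares of a gene sit close together on the scale of the panel.

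Among the secreted MMPs, both gelatinases, MMP2 and MMP9, which cut denatured collagen and basement membrane collagen, were lower in SCGB3A1 cells without passing adjustment. MMP2 read 11.74, 11.67 and 11.61 in control and 11.46, 11.60 and 11.44 in SCGB3A1 cells. The highest SCGB3A1 value lay just under the lowest control value, and the log2 fold change was -0.17 ± 0.08 (SE; 95% interval -0.34 to -0.0046; adjusted p = 0.80). The other probe sets of MMP2 were dim, at control means of 6.17 and 6.85, and gave 0.17 and -0.03. MMP9 read 7.24, 6.98 and 7.17 in control and 6.87, 6.97 and 6.87 in SCGB3A1 cells. Its groups did not overlap, although control replicate 2 and SCGB3A1 replicate 2 were close, and the log2 fold change was -0.23 ± 0.08 (SE; 95% interval -0.41 to -0.05; adjusted p = 0.76). Its only probe set was near the median of all probe sets, and with an array left out the value ran from -0.17 without control replicate 1 to -0.30 without control replicate 2.

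The collagenases MMP1, MMP8 and MMP13, which cut the triple helix of fibrillar collagen, had log2 fold changes of -0.10 to 0.05. MMP1 read 8.52, 8.28 and 8.08 in control and 8.21, 8.28 and 8.10 in SCGB3A1 cells, and the control arrays spanned the SCGB3A1 arrays (adjusted p = 0.91). MMP8 and MMP13 were below the median of all probe sets. Of the stromelysins, which cut matrix glycoproteins and proteoglycans, MMP3 differed by -0.08, MMP10 by 0.12 and MMP11 by 0.14. MMP11, the only one of these above that median and a gene known from tumour stroma, read 7.96, 7.77 and 7.87 in control and 8.14, 7.99 and 7.88 in SCGB3A1 cells, with overlap and an adjusted p of 0.85. The matrilysins MMP7 and MMP26 read at most 6.61 on any array and differed by 0.0036 and 0.013.

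MMP28, or epilysin, a secreted MMP of epithelia, was the MMP with the largest positive difference. It read 8.24, 8.11 and 8.16 in control and 8.40, 8.36 and 8.36 in SCGB3A1 cells. All SCGB3A1 arrays lay above all control arrays, by 0.20 ± 0.07 (SE; 95% interval 0.05 to 0.36; adjusted p = 0.76). Its 5 probe sets did not go one way: 3 differed by 0.12 to 0.20, each without overlap, and the others by -0.02 and -0.10. MMP19 (0.17, adjusted p = 0.88) was next in size, with overlapping groups.

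The membrane-type MMPs had log2 fold changes of -0.15 to 0.16, with 3 above 0 and 3 below. MMP14, which activates pro-MMP2 at the cell surface together with TIMP2, read 10.53, 10.22 and 10.43 in control and 10.70, 10.58 and 10.39 in SCGB3A1 cells. The groups overlapped, since SCGB3A1 replicate 3 lay within the control range, and the difference was 0.16 ± 0.10 (SE; 95% interval -0.06 to 0.38; adjusted p = 0.85), or 0.075 without control replicate 2. All 4 MMP14 probe sets were above 0, between 0.13 and 0.22, and the largest had groups apart (0.22 ± 0.07 SE, adjusted p = 0.72). MMP16, another transmembrane type, read 8.86, 8.92 and 8.92 in control and 8.84, 8.95 and 8.83 in SCGB3A1 cells. These overlapped (-0.03 ± 0.07 SE, adjusted p = 0.96), and its 5 probe sets were all below 0, between -0.18 and -0.03. MMP25, which is held by a lipid anchor, read 7.32, 7.56 and 7.32 in control and 7.32, 7.28 and 7.16 in SCGB3A1 cells. The groups just failed to touch, with -0.15 ± 0.09 (SE; adjusted p = 0.83) resting in part on control replicate 2, and its other probe set gave 0.08. The opposite-strand transcript MMP24OS, which is no protease, differed by 0.15 (adjusted p = 0.83).

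A cluster of MMP genes lies on chromosome 11, in the order MMP7, MMP20, MMP27, MMP8, MMP10, MMP1, MMP3, MMP12 and MMP13 in RefSeq. Of these 9 genes, 8 read below the median of all probe sets, MMP1 being the exception at a mean of 8.25. Their log2 fold changes lay between -0.10 and 0.12 with a median of 0.0036, 0 had an unadjusted p under 0.05, and adjusted p-values were 0.89 to 1.00. Promoters of inducible MMP genes are known for a TATA box near the start and an AP-1 site before it, so the 250 bases before the start were searched on both strands in the promoters that RefSeq gave for 38 of the 66 genes (GRCh38.p14). These motifs were chosen after the values were seen. The AP-1 heptamer (TGACTCA or its reverse complement TGAGTCA) was in 1 of 38 (2.63%), that of MMP7, against 4.2% of all promoters. Of the 38, only 13 were MMP entries, which include MMP24OS and MMP25-AS1. The other 28 of the 66 genes, MMP2 and MMP9 among them, had no entry. How common the site is in MMP promoters therefore cannot be read from this. All promoters were 35116 RefSeq entries, more than the 19775 genes measured, so these shares are not of a matched set. The TATA motif (TATAAA or TTTATA) was in 7 of 38 (18.4%), against 10.7% of all promoters, 6 of them among 13 MMP entries. The windows of 4 cluster genes are shown because they hold these motifs, in capitals, on the strand of the gene.
MMP7, AP-1, chr11:102530796-102530825, minus strand: aaacactcaaaTGAGTCAcctatttccaca
MMP7, TATA, chr11:102530760-102530789, minus strand: gctgagaagctaTATAAAtttctgcagtca
MMP10, TATA, chr11:102780642-102780671, minus strand: gcattgtctctgTATAAAagaaaggccact
MMP20, TATA, chr11:102625387-102625416, minus strand: cctgtttgactcTATAAAaggagctcaagg
MMP8, TATA, chr11:102725047-102725076, minus strand: actaaatcacatTATAAAattgcaaaactg
In MMP7 and MMP10 the TATA motif began at positions -30 and -31 relative to the start, in MMP20 at -72 and in MMP8 at -110. The matches are descriptions of the sequence and say nothing of what binds there. All 4 genes read at or below 7.09 on every array.

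The GC box (GGGCGG or CCGCCC), to which SP1 family factors bind, was in 26 of the 38 promoters (68.4%), against 42.6% of all promoters, with 6 among the 13 MMP entries and 20 among the other 25. MMP24OS and MMP25-AS1, which are not proteases, are among those 6. The 35116 entries of all promoters are not matched to the genes measured, so whether the motif is enriched cannot be read from these shares. The motif was found before genes with bright and with dim probe sets alike, such as ADAMTS20 and TIMP4 among the dim. The windows of the main sheddases and MMP14 are shown as examples from genes central to shedding and MMP activation, with the GC box in capitals.
ADAM10, chr15:58749883-58749912, minus strand: ggggacgggtagGGGCGGgaggtaggggcg
ADAM17, chr2:9555884-9555913, minus strand: cgcaccggcgtgGGGCGGggcaagcggagc
MMP14, chr14:22836507-22836536, plus strand: aggagggcactgGGGCGGggacggaggaga

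The ADAM genes with a catalytic zinc site numbered 12, and 3 of them lay above 0 and 9 below, with a median log2 fold change of -0.042. Without SCGB3A1 replicate 1 the split was 6 and 6. ADAM10, the constitutive sheddase of Notch and of cadherins, read 11.27, 11.29 and 11.18 in control and 11.27, 11.20 and 11.20 in SCGB3A1 cells. The arrays overlapped, at -0.02 ± 0.07 (SE; 95% interval -0.18 to 0.13; adjusted p = 0.97). ADAM17, which releases TNF and ligands of the EGF receptor, read 9.28, 9.08 and 9.27 in control and 9.38, 9.34 and 9.20 in SCGB3A1 cells. Control replicate 2 was low and the groups overlapped, at 0.10 ± 0.08 (SE; 95% interval -0.08 to 0.28; adjusted p = 0.89), and the 3 ADAM17 probe sets ran from -0.08 to 0.23. ADAM9, a sheddase with a broad range of substrates, read 11.12, 11.45 and 11.13 in control and 11.18, 11.08 and 11.26 in SCGB3A1 cells. Its difference of -0.06 (adjusted p = 0.94) rested on control replicate 2, without which it was 0.045.

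ADAM15 and ADAM21 were higher in all SCGB3A1 arrays than in any control array. ADAM15, which carries an RGD motif that integrins bind, read 9.08, 9.20 and 9.03 in control and 9.29, 9.24 and 9.38 in SCGB3A1 cells. The gap between the groups was narrow against their spread, and the fold change was 0.20 ± 0.08 (SE; 95% interval 0.03 to 0.36; adjusted p = 0.78), with 0.10 for its other probe set. ADAM21, a gene mainly expressed in testis, read 6.43, 6.60 and 6.53 in control and 6.70, 6.79 and 6.79 in SCGB3A1 cells. It was below the median of all probe sets on every array, with 0.24 ± 0.07 (SE; 95% interval 0.07 to 0.40; adjusted p = 0.72), and its other probe set gave -0.01.

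ADAM8, a leukocyte sheddase that is also made by breast cancers, read 7.28, 7.38 and 7.39 in control and 7.25, 7.13 and 7.25 in SCGB3A1 cells. All 3 SCGB3A1 arrays were under the control arrays, by a difference of -0.14 ± 0.07 (SE; adjusted p = 0.82). Its other probe set, at a control mean of 6.68, went the other way by as much (0.14 ± 0.11 SE), and their average was -0.0016. ADAM33, linked by genetics to asthma, read 7.999, 8.016 and 8.224 in control and 7.796, 7.930 and 7.999 in SCGB3A1 cells. The highest SCGB3A1 array just reached the control range, with -0.17 ± 0.09 (SE; adjusted p = 0.82), and its other probe set gave 0.03. ADAM12, a protease of mesenchymal cells, read 9.56, 9.65 and 9.55 in control and 9.41, 9.52 and 9.62 in SCGB3A1 cells. These overlapped (-0.07, adjusted p = 0.92), whereas of its other probe sets 2 were at -0.18 and -0.20 and 2, both dimmer, at 0.06 and 0.10. The probe set at -0.18, with a control mean of 9.49, was lower without overlap (adjusted p = 0.79), and the one at -0.20 overlapped. The 6 ADAMs that lack a catalytic site, several of which act as receptors in brain and on sperm, differed by -0.12 to 0.16, and 3 of them were below the median of all probe sets.

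The 7 ADAMTS proteases of the proteoglycanase group, which cut aggrecan and versican, all had a positive log2 fold change, from 0.013 for ADAMTS20 to 0.32 for ADAMTS1, with a median of 0.10. Among all genes 54.2% lay above 0. The shared sign holds for the brightest probe sets, since the lowest probe set was at -0.14 in ADAMTS15, -0.04 in ADAMTS9 and -0.02 in ADAMTS5. In ADAMTS1, ADAMTS8 and ADAMTS20 all probe sets were above 0, and ADAMTS4 had only 1. Only ADAMTS1 had an unadjusted p under 0.05 and 0 of the 7 passed adjustment, and 6 of 7 were above 0 without control replicate 2 or without SCGB3A1 replicate 3, with ADAMTS20, a dim gene, then at -0.026 and -0.097. ADAMTS1, which also restrains angiogenesis, read 8.52, 8.49 and 8.38 in control and 8.74, 8.83 and 8.79 in SCGB3A1 cells. All SCGB3A1 arrays were above all control arrays and the gap between the groups exceeded the spread within either. The difference was 0.32 ± 0.07 (SE; 95% interval 0.16 to 0.48; limma adjusted p = 0.48), which is 1.25-fold. It stayed between 0.28 and 0.35 with any array left out, but the other ADAMTS1 probe set, at a control mean of 7.48, gave 0.03 ± 0.08 (SE).

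ADAMTS5, the principal aggrecanase of cartilage, read 8.65, 8.66 and 8.58 in control and 8.76, 8.71 and 8.71 in SCGB3A1 cells. The groups were apart by a small margin (0.10 ± 0.07 SE, adjusted p = 0.86), and its 3 other probe sets ran from -0.02 to 0.01. ADAMTS4, the other major aggrecanase, read 7.13, 7.17 and 7.36 in control and 7.64, 7.40 and 7.14 in SCGB3A1 cells. SCGB3A1 replicate 3 was near the lowest control array, so that 0.17 ± 0.11 (SE; adjusted p = 0.86) lay within the spread. ADAMTS8, below the median of all probe sets in the mean, read 6.61, 6.74 and 6.82 in control and 6.79, 6.86 and 7.05 in SCGB3A1 cells (0.18, adjusted p = 0.82), with overlap.

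The procollagen peptidases ADAMTS2, ADAMTS3 and ADAMTS14, which remove the amino-terminal propeptides of fibrillar procollagens, differed by 0.11, 0.02 and -0.0069, with adjusted p-values from 0.86 to 0.99. Of the 8 remaining ADAMTS genes, 2 were above 0 and 6 below. ADAMTS13, the plasma protease that cuts von Willebrand factor, read 7.04, 7.94 and 7.31 in control and 6.98, 7.06 and 7.19 in SCGB3A1 cells. It had the largest negative value (-0.35 ± 0.17 SE, adjusted p = 0.82), but this came with the high control replicate 2 and was -0.10 without that array. ADAMTS12, which cuts cartilage oligomeric matrix protein, read 8.91, 8.69 and 8.97 in control and 9.09, 8.94 and 8.80 in SCGB3A1 cells, and ADAMTS6 8.59, 8.55 and 8.76 in control and 8.53, 8.60 and 8.70 in SCGB3A1 cells. Both overlapped, with differences of 0.09 and -0.02.

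**Figure D3:**
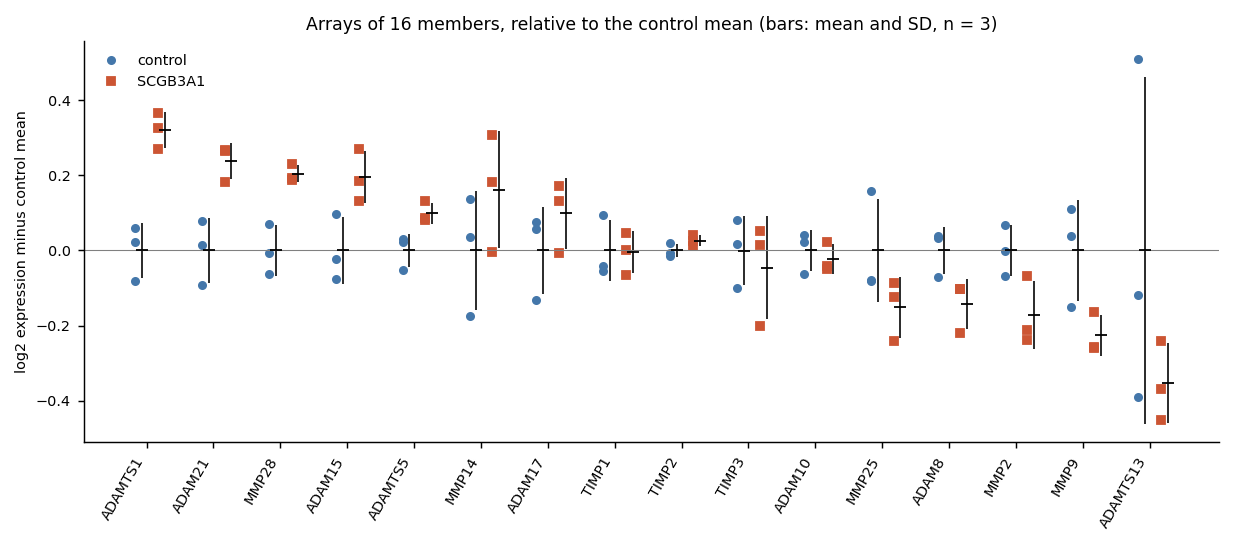
Log2 expression of 16 of the genes on each array minus the mean of the 3 control arrays (y axis), for control (circles) and SCGB3A1 (squares), where bars give mean and SD of each group (n = 3). In ADAMTS1 all SCGB3A1 arrays are clear of the control arrays, in the TIMPs and ADAM10 the groups lie on each other, and in ADAMTS13 control replicate 2 sets both the mean and the SD.

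TIMP1, TIMP2 and TIMP3 differed by 0.05 or less in size, with intervals that ended at -0.23 and 0.17 at the widest. TIMP1 read 13.41, 13.26 and 13.27 in control and 13.36, 13.31 and 13.25 in SCGB3A1 cells. The groups overlapped, at -0.0049 ± 0.07 (SE; 95% interval -0.17 to 0.16; adjusted p = 0.99). TIMP2, the inhibitor that also serves MMP14 in the activation of pro-MMP2, read 12.80, 12.84 and 12.81 in control and 12.86, 12.83 and 12.84 in SCGB3A1 cells. The difference was 0.03 ± 0.07 (SE; 95% interval -0.12 to 0.17; adjusted p = 0.97), and its 3 probe sets ran from -0.12 to 0.07. TIMP3, which binds to matrix and also inhibits ADAM17 and the aggrecanases, read 10.81, 10.63 and 10.75 in control and 10.74, 10.78 and 10.53 in SCGB3A1 cells. These overlapped too (-0.05 ± 0.09 SE; 95% interval -0.23 to 0.14; adjusted p = 0.96), and its 4 probe sets ran from -0.15 to 0.18. TIMP4 was dim, at 6.38 to 6.62 in control and 6.48 to 6.67 in SCGB3A1 cells, and differed by 0.11 (adjusted p = 0.87).

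The 66 genes were covered by 151 probe sets, 21 genes by 1 and 45 by several. In 15 of the 45 all probe sets had the same sign, and in 30 both signs occurred, as in MMP2, ADAMTS5 and TIMP3. Of the 151 probe sets, 0 passed adjustment or the signature criteria, 12 (7.95%) had an unadjusted p under 0.05, against 6.2% of all probe sets, and 2 were at least 0.3 from 0, those that represented ADAMTS1 and ADAMTS13. With the probe sets of a gene averaged, several of the larger differences shrank: ADAMTS1 to 0.18, ADAM21 to 0.11, MMP28 to 0.08, ADAMTS8 to 0.06, MMP2 to -0.01 and ADAMTS13 to -0.22. Others did not: ADAM15 changed less, to 0.15, and MMP14 went from 0.16 to 0.18. In that setting ADAMTS1, ADAM15, MMP14 and MMP9 had an unadjusted p under 0.05, and 0 of the 66 genes passed adjustment.

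**Figure D4:**
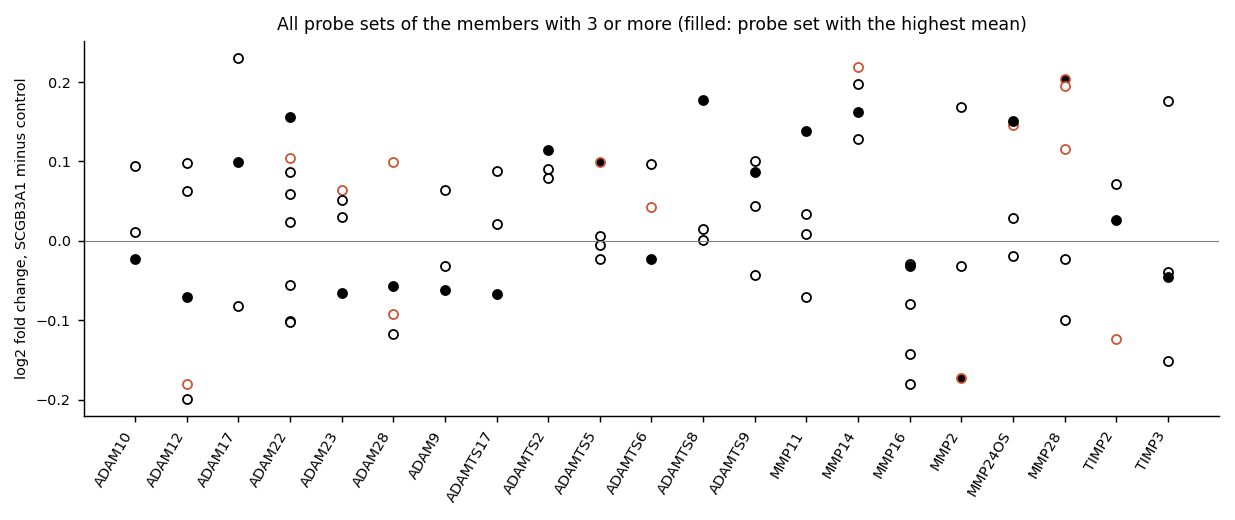
Log2 fold change, SCGB3A1 minus control (y axis), of every probe set of the 21 genes that have at least 3, with the probe set of the highest mean filled and probe sets whose 3 control and 3 SCGB3A1 arrays do not overlap outlined in red. The points of MMP14 all lie above 0 and those of MMP16 all below, whereas MMP2, ADAM17 and TIMP3 have points on both sides.

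Genes that act with these proteases were read in 6 lists, with 88 of 94 listed genes measured. Of the 88, 0 passed adjustment or the signature criteria, and 7 (7.95%, against 6.82% of all genes) had an unadjusted p under 0.05, 2 of them higher (2.27%, against 3.93%) and 5 lower (5.68%, against 2.89%). In 14 genes (15.9%, against 12.3%) the groups did not overlap, 7 in each direction. Above 0 lay 48 (54.5%, against 54.2%), and the median log2 fold change was 0.0064. Among 16 activators of MMP precursors and other inhibitors, 0 were higher and 2 lower (12.5%, against 2.89%) at that p, and 1 more, PLAT, was higher without overlap. TFPI2, a Kunitz-type inhibitor of plasmin bound to the matrix, read 8.20, 8.40 and 8.09 in control and 8.02, 7.84 and 8.01 in SCGB3A1 cells (-0.27 ± 0.09 SE, adjusted p = 0.74). PLAUR, the receptor of urokinase, whose plasmin activates several MMP precursors, read 8.99, 8.91 and 8.90 in control and 8.68, 8.85 and 8.68 in SCGB3A1 cells (-0.19 ± 0.08 SE, adjusted p = 0.78). In both, the SCGB3A1 arrays lay below the control arrays. The values moved with the probe set, TFPI2 to -0.42 and PLAUR to -0.08 when their probe sets were averaged. Without probe sets whose suffix marks cross-hybridization or several transcripts, TFPI2 was at -0.56 and PLAUR at -0.07. In that setting too, 0 related genes passed the signature criteria. PLAT, the tissue plasminogen activator, read 10.51, 10.47 and 10.53 in control and 10.65, 10.71 and 10.53 in SCGB3A1 cells (0.13 ± 0.07 SE, adjusted p = 0.83). THBS1, which binds and inhibits MMP2 and MMP9, overlapped (-0.17, adjusted p = 0.83).

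The iRhoms and TspanC8 tetraspanins, which carry ADAM17 and ADAM10 to the cell surface, had a median of 0.012 over 8 genes. TSPAN15, a partner of ADAM10, read 7.75, 7.54 and 7.74 in control and 7.39, 7.47 and 7.51 in SCGB3A1 cells (-0.22 ± 0.08 SE, adjusted p = 0.76), without overlap. TSPAN14, another partner of ADAM10, and RHBDF2, which encodes an iRhom, were both at 0.16 with overlapping groups. Of 20 membrane proteins that ADAMs shed, the median was 0.015, and EREG, the EGF receptor ligand epiregulin, read 9.94, 9.84 and 9.76 in control and 9.59, 9.73 and 9.53 in SCGB3A1 cells. EREG was lower in all SCGB3A1 arrays (-0.23 ± 0.08 SE, adjusted p = 0.76). The proteoglycan SDC1 (0.24) and the hyaluronan receptor CD44 (-0.16) had overlapping groups.

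Among 16 matrix substrates (median 0.013), DCN and COL1A1 lay farthest from 0. DCN, or decorin, a small proteoglycan that coats collagen fibrils, read 8.58, 8.41 and 8.48 in control and 9.02, 8.83 and 8.82 in SCGB3A1 cells. The groups were well apart, at 0.40 ± 0.08 (SE; adjusted p = 0.32), but its 7 probe sets averaged 0.12. Without probe sets whose suffix marks cross-hybridization or several transcripts, DCN was at 0.04. The study picked DCN for its SCGB3A1 signature from these same arrays, which makes the direction no independent evidence. COL1A1, a chain of type I collagen, read 13.52, 13.74 and 13.67 in control and 13.35, 13.46 and 13.51 in SCGB3A1 cells, a difference of -0.21 ± 0.08 (SE; adjusted p = 0.78) without overlap, or -0.10 over its probe sets. COL5A1 overlapped (-0.17, adjusted p = 0.85). ADAMTS-like proteins and other metzincins had a median of 0.04 over 16 genes, of which PAPLN, or papilin, was the farthest from 0 (0.18 ± 0.08 SE, adjusted p = 0.79; 0.05 over its probe sets). The 12 AP-1, ETS and RUNX regulators, factors known at MMP promoters, had a median of -0.03 and a range of -0.12 to 0.16, and 0 of them had an unadjusted p under 0.05. In 4 of the 12 (33.3%, against 12.3% of all genes) the groups did not overlap, ETV4 (0.16) and ETS2 (0.13) being higher and JUND (-0.12) and FOSL1 (-0.12) lower. Over all their probe sets, ETV4 was at 0.04, JUND at -0.03 and ETS2 at 0.11, and FOSL1 had only 1 probe set.

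**Figure D5:**
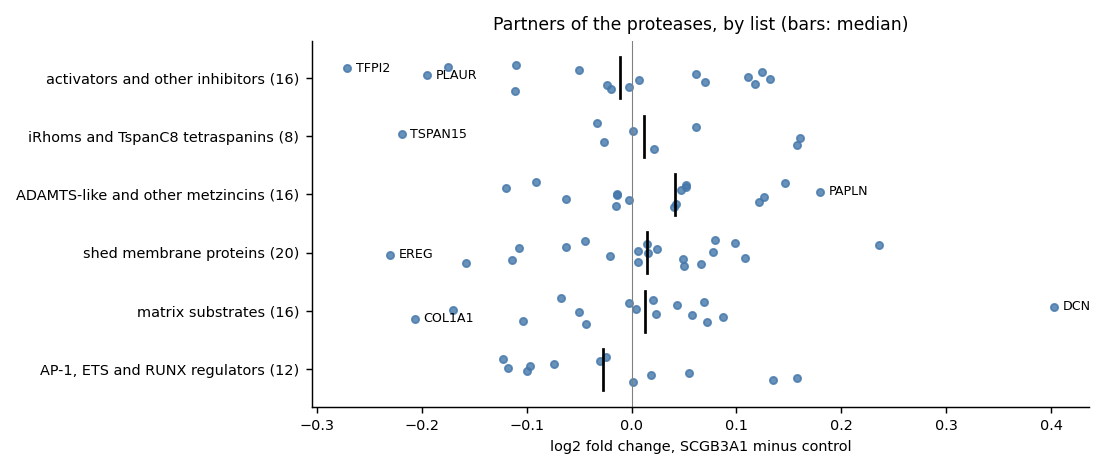
Log2 fold change, SCGB3A1 minus control (x axis), of 88 genes that act with the proteases, by list with the number of genes measured (y axis), where each point is a gene at the probe set of its highest mean and the bar is the median of the list. The medians lie between -0.03 and 0.04, and DCN, at 0.40, is the point farthest from 0.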

How the data were processed

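RNA of 6 SUM159 oncosphere samples was hybridised to Affymetrix arrays, 1 sample per array. Robust multiarray averaging by the authors gave the deposited log2 values, which ran from 5.66 to 14.7. It forces 1 distribution on the arrays, which hides any change in total RNA of a cell, and no detection calls were used here. Depth does not apply to arrays, and their number limits the precision. Of 54675 probe sets, 62 manufacturer controls were set aside. Platform annotation gave 1 symbol to 41091 of the 54613 tested, several to 1801 and none to 11721. Symbols were updated by gene identifier against RefSeq (GRCh38.p14), which changed 0 of them and did not hold 54 identifiers.

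Groups were compared with limma (version 3.58.1, R 4.3.3; lmFit and eBayes, 2-sided), with Benjamini-Hochberg adjustment over 54613 probe sets, as an empirical Bayes comparison after the study's methods. All adjusted p-values come from limma. The fit was run on simulated data with independent normal noise and added changes larger than any difference among the 66 genes. That run does not show how well differences of the sizes seen here would be found. The genes and lists were chosen with earlier results of these data known. Named were 25 of the 66 genes and 18 related genes, by a rule that took, in each family, the 4 genes with the smallest p and the 4 with the highest mean, any gene past the thresholds, MMP2, MMP9, MMP14, ADAM10, ADAM17, ADAMTS1 and the TIMPs, up to 3 genes with the smallest p in each related list, and SCGB3A1. Other genes in the text were added after their values were seen, to describe a group. Alternatives were other normalizations, variance models, a replicate block, filters on probe sets, the mean of all probe sets, and each array left out. Promoter sequences are from RefSeq and had entries for 38 genes.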

Additional observations from a re-analysis of the deposited data

How the results depend on the processing

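In 15 alternatives, including 6 that left out an array, 0 protease or TIMP genes and 0 related genes passed the adjusted p or the signature criteria. All 66 genes were tested, except 40 without dim probe sets and 57 without probe sets whose suffix marks cross-hybridization (_x_at) or several transcripts (_s_at). Genes with an unadjusted p under 0.05 numbered 6 (6.82% of all genes), and 5 to 10 with an array left out (4.53% to 9.92% of all genes). The 10 came without SCGB3A1 replicate 3, where the share of all genes was 9.92%. There were 7 with the replicate block (6.45% of all genes) and 4 when the probe sets of each gene were averaged (7.22% of all genes). Related genes at that p numbered 7, and 4 to 11 with an array left out. The 4 came without SCGB3A1 replicate 1 (4.53% of all genes) and the 11 without SCGB3A1 replicate 3 (9.92% of all genes). Genes whose groups did not overlap numbered 9, and 12 to 20 with an array left out, where fewer arrays separate more easily by construction (19.6% to 28.5% of all genes), and 4 with averaged probe sets (13% of all genes). Arrays with the same replicate number had weakly correlated deviations (0.145, -0.144 and -0.0871), which with so few arrays cannot settle whether they were paired. The replicate block changed no call past adjustment.

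Of the 25 named genes, 17 could be tested in every alternative and 12 of these kept their sign in all. The other 8, ADAMTS1 among them, lacked a value in 1 of the probe set filters, and 7 kept their sign where tested. With an array left out, signs turned for ADAM9 (-0.119 to 0.0451), ADAMTS6 (-0.0667 to 0.043), TIMP1 (-0.0317 to 0.0423) and TIMP3 (-0.0945 to 0.033). With averaged probe sets they turned for ADAM10 (0.0274), ADAMTS6 (0.0392), TIMP2 (-0.00827) and THBS1 (0.00841). Without the _x_at and _s_at probe sets they turned for TSPAN14 (-0.0362), BMP1 (-0.144) and COL5A1 (0.0112). The cause of these turns was not tested.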
